A study of Homo sapiens with 6 samples.

Results

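Collagen genes and a group of other extracellular matrix genes were examined after silencing of Mic60 in PC3, an epithelial prostate cancer line that was derived from a metastasis to bone. The genes were chosen by name as every protein-coding gene called COL, a number, A and a number, plus FN1, SPARC, THBS1, THBS2, TNC, POSTN, BGN, DCN, LUM, VCAN, FBN1 and FBN2. This gave 56 of the 57736 genes in the deposited count table, of which 44 are collagens and 12 are other matrix genes, and the rule uses gene names and no measured value. The samples were 3 libraries of cells given a control siRNA (siCTRL) and 3 of cells given an siRNA against Mic60 (siMic60), the structural protein of mitochondrial cristae encoded by IMMT. Another label field calls these groups Mic60 WT and Mic60 KO, and the siRNA names are used here. PC3 is a single line grown without other cell types, and the labels do not give the time of transfection or say whether the replicates were separate cultures, so p-values cover only library-to-library spread, which may be technical. The QuantSeq 3′ mRNA kit used here reads a transcript at its polyadenylated end, so that levels in CPM (TMM-normalized counts scaled to a common library size) follow transcript number and were not divided by gene length.

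Collagens are secreted proteins built from triple helices of alpha chains, and each chain has its own gene. Fibrillar collagens form the tensile fibrils of connective tissue, network-forming collagens the sheets of basement membranes, and type VI collagen beaded microfilaments around cells, while fibril-associated and transmembrane types tie these structures to each other or to the cell. The small leucine-rich proteoglycans biglycan (BGN), decorin (DCN) and lumican (LUM) bind collagen fibrils, and in carcinomas much of the fibrillar matrix is laid down by stromal fibroblasts.

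Total counts were 7714837 to 8396244 in siCTRL and 6644495 to 8779877 in siMic60. IMMT checked the labels: it had 742, 729 and 733 counts in siCTRL against 38, 60 and 74 in siMic60, and 8.12% of the control level was left (log2 fold change −3.62, SE 0.15). The epithelial markers KRT8, KRT18, KRT19, EPCAM and CDH1 were all measured, summing to 1501 to 2081 CPM in siCTRL and 1081 to 1110 CPM in siMic60. They did not move alike. The mean of KRT8 was 119 CPM in siCTRL and 183 CPM in siMic60, while the other 4 had lower means in siMic60. KRT19, the largest part of the sum, had means of 1158 and 605 CPM. KLK3, the prostate secretory gene for prostate-specific antigen, had no count. Of 8 fibroblast markers, 2 passed the filter on low counts and TCF21 was at 0. The summed level of the 8 was 9.63 to 13.1 CPM in siCTRL and 6.57 to 8.89 CPM in siMic60. ACTA2 and PDGFRA made up the larger share, with means of 4.74 and 3.90 CPM in siCTRL and 5.70 and 1.21 CPM in siMic60. The 7 leukocyte markers summed to 1.63 CPM or less in every library with CD3E, CD3D, CD163 and MS4A1 at 0, and of 3 endothelial genes CDH5 and VWF were at 0 while KDR had 15 to 33 counts in siCTRL and 17 to 23 in siMic60. The part of these marker levels in the results on matrix genes was not tested. As in any bulk measurement, fewer cells expressing a gene and less RNA per cell cannot be told apart.

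Of the 56 genes, 29 reached 10 counts in 3 or more of the 6 libraries (22 collagens and 7 other matrix genes) and were tested, 20 had some counts below this limit and 7 had none. The small leucine-rich proteoglycans were close to absent from the counts: DCN was at 0 in every library, BGN was at 0 in the siCTRL libraries with 4 counts over the siMic60 libraries, and LUM had 0, 2 and 4 counts in siCTRL and 3, 5 and 6 in siMic60. Of the other matrix genes, POSTN, which encodes periostin, and THBS2, which encodes thrombospondin 2, were also at 0, as were COL6A6, COL19A1, COL23A1 and COL25A1. A group count of 0 allows up to 3 counts, which is 0.123 CPM in siCTRL and 0.128 CPM in siMic60, for counting error only.

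Type I collagen, the main fibrillar collagen of bone and skin, is usually assembled from the products of COL1A1 and COL1A2, and the 2 genes were measured at very different levels. COL1A1 had 7564 counts over the siCTRL libraries and COL1A2 had 9, with 8, 1 and 0 in the single libraries, and in siMic60 the sums were 1363 and 5. Among the other collagens below the limit, those with at least 10 counts in all were COL21A1 (25 counts over siCTRL and 4 over siMic60), COL9A2 (19 and 6), COL26A1 (13 and 2), COL11A2 (12 and 7), COL24A1 (10 and 1) and COL11A1 (6 and 5). These counts are too few for a comparison of levels between the groups. With no minimum count, COL21A1 was the single one of the 20 to pass the threshold (log2 fold change −2.44, adjusted p = 0.0392).

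**Figure D1:**
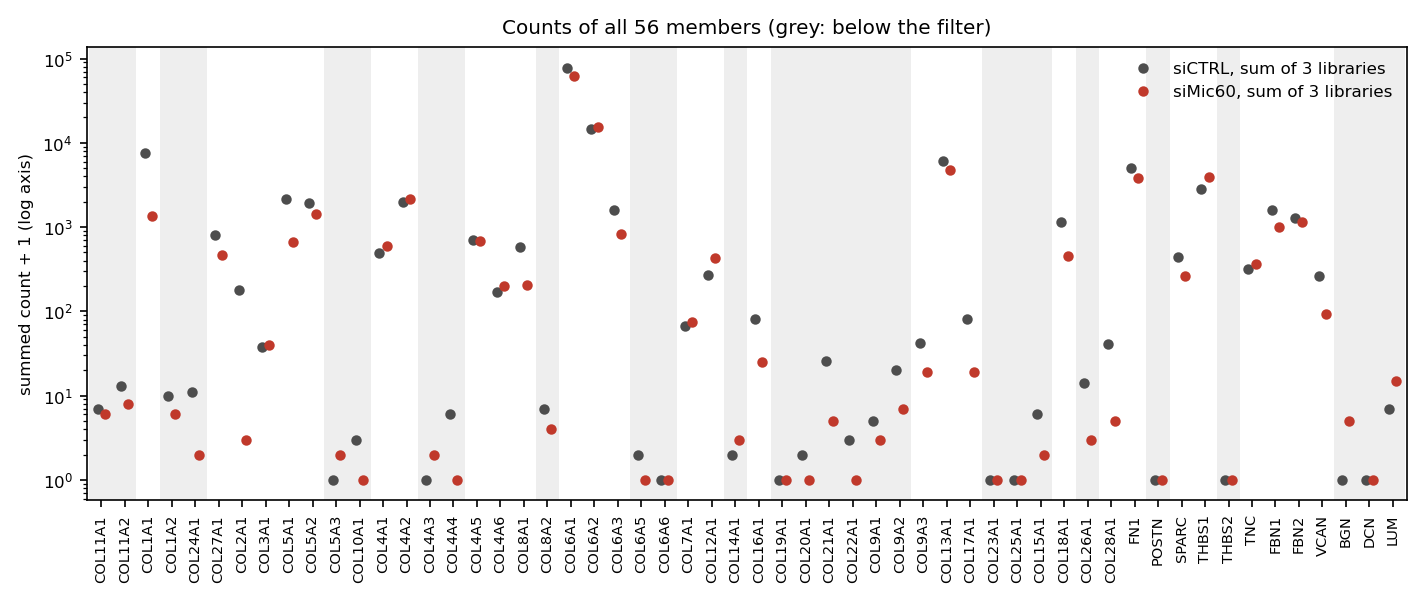
Summed counts of all 56 genes over the 3 siCTRL libraries (grey points) and the 3 siMic60 libraries (red points), plotted as count + 1 on a log axis and ordered by family, with genes below the limit on a grey ground. COL6A1, with 78072 and 62527 counts, stands highest, and the 3 small leucine-rich genes at the right edge lie at or near 0.

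The level was dominated by 1 gene. COL6A1, which encodes the alpha 1 chain of type VI collagen, gave 64.2% to 68.1% of all collagen counts in each of the 6 libraries. The 44 collagens summed to 4859 ± 708 CPM (SD, n = 3) in siCTRL and 3966 ± 128 CPM in siMic60 (81.6% of control). Without COL6A1 the siMic60 sum was 76.8% of control. Without COL6A1 and COL6A2 the sums were 1072 ± 73.9 and 614 ± 55.4 CPM, which is 57.2% of the control sum. By family, the 11 fibrillar collagens summed to 520 ± 74.8 CPM in siCTRL and 168 ± 19.8 CPM in siMic60 (32.3% of control). COL1A1 alone held 309 ± 53.2 CPM of this sum in siCTRL and 57.4 ± 10.2 CPM in siMic60. The 9 network-forming collagens summed to 160 ± 11.4 and 166 ± 18.0 CPM. The 12 other matrix genes summed to 484 ± 11.3 and 459 ± 32.9 CPM. The fibrillar sums of the groups lay far apart, while the network-forming sums overlapped.

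Silencing of Mic60 was compared with the control by edgeR's quasi-likelihood test over all 14653 genes that passed the same limit, with Benjamini-Hochberg adjustment and a threshold of 0.05. In siMic60, 13 of the 29 tested genes fell (44.8%) and 1 rose, COL12A1. Over all genes tested, 17.9% fell, 17.7% rose and 35.5% changed in either direction. Of the collagens, 11 fell, 1 rose and 10 did not pass, and of the other matrix genes VCAN and FBN1 fell and 5 did not pass. The median log2 fold change was −0.41 for the 29 genes and −0.57 for the 22 collagens, beside 0.0022 for all genes tested. All 3 siMic60 libraries lay below all 3 siCTRL libraries for 14 of the 29 genes, where 24.1% of all genes did so, and above them for 2, COL12A1 and COL4A1, where 23.7% did.

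COL2A1, COL28A1, COL17A1 and COL16A1 reached the limit through the siCTRL libraries alone, so a lower value in siMic60 was built into their entry. Of the 23 genes with at least 10 counts in every library, 9 fell and 1 rose, where 17.6% of the 12984 genes with this count fell and 18.8% rose. The median log2 fold change of these 23 was −0.33, and that of the 16 collagens among them −0.29, beside 0.020 over the 12984 genes. Because the set of tested genes depends on their level, these counts describe the genes that could be measured and not the whole list. The siCTRL library of replicate 1 was the highest of its group for 15 of the 29 genes. Without it, 10 collagens fell and 1 rose, and VCAN and FBN1 still fell.

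**Figure D2:**
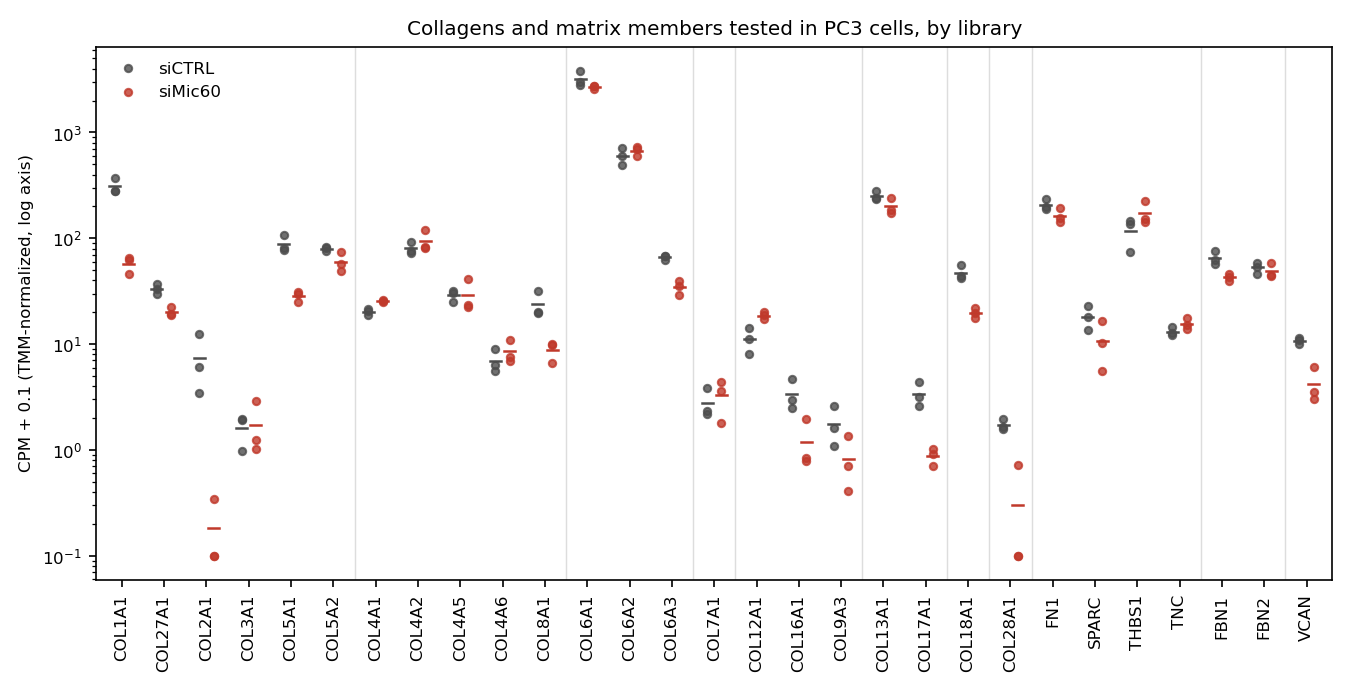
Level of the 29 tested genes in each library, as CPM + 0.1 on a log axis, with siCTRL libraries in grey, siMic60 libraries in red and a bar at the mean of each group. Vertical lines separate families. COL1A1, COL5A1 and COL18A1 show red points well below grey points, and COL2A1 and COL28A1 reach 0 in 2 siMic60 libraries each.

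Of 6 fibrillar collagens tested, COL1A1, COL2A1, COL5A1, COL5A2 and COL27A1 fell and COL3A1 did not pass, where 17.9% of all genes tested fell. COL2A1 reached the limit through the siCTRL libraries alone, so a lower value in siMic60 was built into its entry. COL1A1 was at 370, 277 and 279 CPM in siCTRL and at 45.8, 64.9 and 61.6 CPM in siMic60. The groups were separated by a wide gap, and the siMic60 level was 18.6% of control (5.36-fold lower, 95% interval 4.24 to 6.78, log2 fold change −2.42, SE 0.16, adjusted p = 2.72e-08). COL1A1 made up 58.2% to 61.0% of the fibrillar counts in siCTRL and 31.0% to 38.4% in siMic60. Leaving out each library in turn gave log2 fold changes of −2.51 to −2.26.

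COL5A1 and COL5A2 encode the chains of type V collagen, which copolymerizes with type I collagen and regulates fibril diameter. COL5A1 was at 108, 80.3 and 77.9 CPM in siCTRL and at 29.4, 24.8 and 30.8 CPM in siMic60. The groups did not overlap, and the decrease was 3.13-fold (95% interval 2.50 to 3.92, adjusted p = 1.20e-06). COL5A2 was at 75.8, 82.0 and 80.4 CPM in siCTRL and at 48.4, 56.7 and 74.1 CPM in siMic60, where replicate 3 came close to the control range. Its decrease was small (1.33-fold, 95% interval 1.07 to 1.64, adjusted p = 0.0421). It was no longer called when siCTRL replicate 1, 2 or 3 or siMic60 replicate 1 or 2 was left out, with adjusted p of 0.0502, 0.115, 0.0933, 0.186 and 0.129 in that order.

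COL27A1, a fibrillar collagen of cartilage, was at 37.0, 29.5 and 32.9 CPM in siCTRL and at 22.2, 18.7 and 19.2 CPM in siMic60. The groups did not overlap, and the level fell 1.66-fold (95% interval 1.33 to 2.06, adjusted p = 0.00146). COL2A1, the main collagen of cartilage, had 102, 27 and 49 counts in siCTRL and 0, 2 and 0 in siMic60. The siCTRL libraries themselves differed widely, and with 2 counts over siMic60 the normalized counts were 85.1 times higher in siCTRL (95% counting interval 23.2 to 708). The edgeR fit gave a 71.6-fold lower level in siMic60 (95% interval 22.0 to 233, adjusted p = 2.27e-05). Leaving out each library in turn gave fitted log2 fold changes of −8.84 to −5.54, the lowest without siMic60 replicate 2, which held both counts. With no count left in siMic60, the data do not set the size of that lowest value. COL3A1, the reticular fibre collagen, was close to the limit with 15, 7 and 15 counts in siCTRL and 6, 23 and 10 in siMic60, and the groups overlapped (log2 fold change 0.13, 95% interval −0.95 to 1.21, adjusted p = 0.872).

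Where RefSeq gives a promoter for the member (22 of the 29 tested genes, GRCh38.p14), the 250 bases before its start were searched on both strands for the CCAAT box, for the TATA box written as TATAAA, and for the GC box written as GGGCGG, which are short motifs of many core promoters. The CCAAT box was in the promoters of 9 of the 22 genes (40.9%), beside 33.04% of all 27305 promoters of that length. The TATA box was in those of 4 (18.2%, beside 11.13% of all) and the GC box in those of 14 (63.6%, beside 42.31% of all). The promoters of the 22 genes were also richer in G and C, with a median of 64.2% beside 58.0% for all promoters. The part of this in the matches was not tested. A match is a description of the letters in this window. The bases before the start are shown for COL5A1, the most reduced collagen with a promoter in the table that was well counted in both groups (chr9:134641683-134641802, plus strand), and for COL12A1, the gene that rose (chr6:75206054-75206173, minus strand). Neither stretch of 120 bases holds any of the 3 motifs, and both genes have a GC box farther from the start.
COL5A1: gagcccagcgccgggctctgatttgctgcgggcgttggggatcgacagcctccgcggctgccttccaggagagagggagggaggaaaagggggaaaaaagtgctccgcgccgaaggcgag
COL12A1: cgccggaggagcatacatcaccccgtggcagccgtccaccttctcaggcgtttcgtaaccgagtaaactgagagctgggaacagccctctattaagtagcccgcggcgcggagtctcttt

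Basement membrane collagens of type IV showed no call in either direction. COL4A1 was at 18.7, 20.5 and 21.2 CPM in siCTRL and at 25.6, 25.8 and 25.0 CPM in siMic60. All siMic60 libraries were above all siCTRL libraries, but the difference did not pass (log2 fold change 0.34, 95% interval 0.036 to 0.64, adjusted p = 0.0763). COL4A2 was at 72.2, 76.3 and 92.1 CPM in siCTRL and at 119, 83.0 and 81.5 CPM in siMic60, with overlapping groups (log2 fold change 0.24, 95% interval −0.10 to 0.57, adjusted p = 0.261). The COL4A5 and COL4A6 pair, whose chains assemble together in some epithelial basement membranes, had log2 fold changes of 0.0015 (95% interval −0.43 to 0.44) and 0.30 (95% interval −0.26 to 0.86). COL4A5 was at 31.6, 24.9 and 30.4 CPM in siCTRL and 23.5, 22.5 and 40.7 CPM in siMic60, and the sign of its near-zero difference turned with the scaling. COL4A6 was at 8.87, 6.25 and 5.42 CPM in siCTRL and 6.90, 10.9 and 7.49 CPM in siMic60. Both pairs of groups overlapped.

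COL4A1 and COL4A2 lie head to head on chromosome 13 and are transcribed away from each other. The 126 bases between their RefSeq starts are shown because both genes share this stretch and neither was called (chr13:110307158-110307283, plus strand, GRCh38.p14). Capitals mark 1 CCAAT and 1 GGGCGG.
COL4A1-COL4A2: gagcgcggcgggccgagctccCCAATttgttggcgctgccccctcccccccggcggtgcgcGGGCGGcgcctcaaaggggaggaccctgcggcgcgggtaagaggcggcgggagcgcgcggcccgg

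COL8A1, a short-chain network-forming collagen of vascular and corneal matrix, was the exception in its family. It was at 31.8, 19.5 and 19.8 CPM in siCTRL and at 9.81, 6.49 and 10.03 CPM in siMic60. The groups did not overlap and the level fell 2.71-fold (95% interval 1.92 to 3.81, adjusted p = 2.19e-04). Its usual partner chain COL8A2 had 9 counts over all 6 libraries. Leaving out each library in turn gave log2 fold changes of −1.56 to −1.16, the smallest change being that without siCTRL replicate 1, which held the highest value.

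The chains of type VI collagen did not move alike. COL6A1 was at 3789, 2783 and 2985 CPM in siCTRL and at 2759, 2559 and 2724 CPM in siMic60. All siMic60 libraries were below the control range, the nearest by a small margin, and the difference did not pass (log2 fold change −0.25, 95% interval −0.50 to 0.00086, adjusted p = 0.113). COL6A2 was at 713, 497 and 595 CPM in siCTRL and at 721, 697 and 598 CPM in siMic60, with overlapping groups (log2 fold change 0.16, 95% interval −0.12 to 0.44, adjusted p = 0.382). COL6A3, the large alpha 3 chain that carries the C-terminal endotrophin fragment, was at 62.0, 68.0 and 67.3 CPM in siCTRL and at 29.3, 39.3 and 35.0 CPM in siMic60. It fell 1.90-fold with no overlap (95% interval 1.56 to 2.32, adjusted p = 9.22e-05).

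COL6A1 and COL6A2 are neighbours on chromosome 21. The RefSeq table gives the promoter of COL6A2, and its last 120 bases before the start are shown because this gene kept a high level in both groups (chr21:46097992-46098111, plus strand, GRCh38.p14). Capitals mark 1 TATAAA and 3 GGGCGG.
COL6A2: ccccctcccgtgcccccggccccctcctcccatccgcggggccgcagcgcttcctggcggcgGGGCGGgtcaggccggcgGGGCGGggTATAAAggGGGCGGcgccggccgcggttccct

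Ratios between chains of a collagen type were taken within each library, where no normalization enters, and compared by a two-sided exact permutation test over libraries for 5 chosen pairs in which both chains were tested. With 3 libraries against 3 the smallest p is 0.1, so no pair could pass 0.05. The log2 ratio of COL5A1 to COL5A2 was 0.51, −0.031 and −0.045 in siCTRL and −0.72, −1.19 and −1.27 in siMic60, a difference of −1.20 (exact p = 0.1, 0.167 adjusted over the 5 pairs). The ratio of COL6A3 to COL6A1 differed by −0.70 and that of COL6A1 to COL6A2 by −0.41, and in both all siMic60 libraries were below all siCTRL libraries (exact p = 0.1 for each, 0.167 adjusted). The ratios of COL4A1 to COL4A2 (difference 0.12, exact p = 0.6) and of COL4A5 to COL4A6 (difference −0.35, exact p = 0.4) overlapped between the groups.

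**Figure D3:**
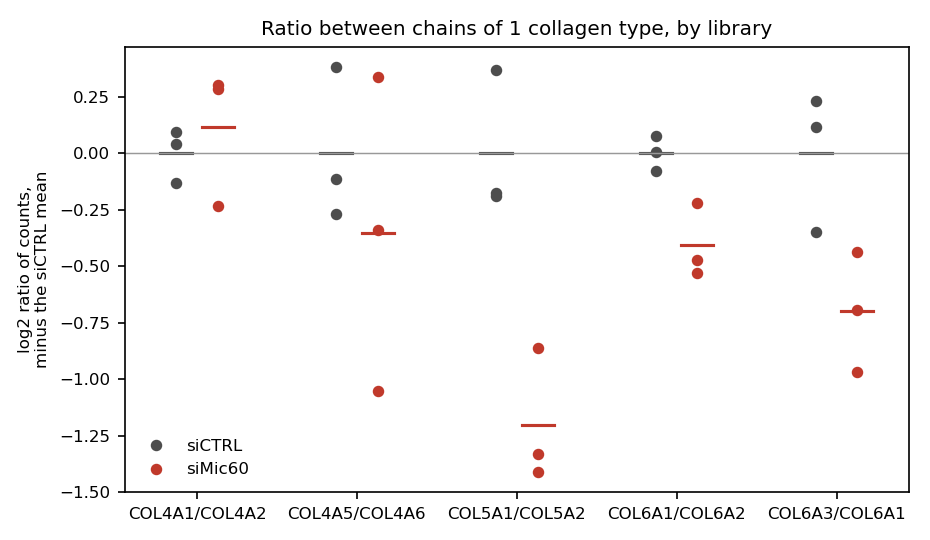
Log2 ratio of counts between chains of a collagen type in each library, shown minus the siCTRL mean of that pair, with siCTRL in grey, siMic60 in red and a bar at each group mean. The siMic60 points of COL5A1/COL5A2, COL6A1/COL6A2 and COL6A3/COL6A1 lie below all siCTRL points of the same pair, and those of both type IV pairs overlap.

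Fibril-associated collagens, which sit on the surface of fibrils, held the single increase. COL12A1 was at 8.03, 11.0 and 14.1 CPM in siCTRL and at 18.6, 17.1 and 19.8 CPM in siMic60. All siMic60 libraries were above all siCTRL libraries, and the level rose 1.68-fold (95% interval 1.24 to 2.27, adjusted p = 0.00978). COL16A1 had 20, 23 and 37 counts in siCTRL and 12, 6 and 6 in siMic60, without overlap (log2 fold change −1.63, 95% interval −2.63 to −0.63, adjusted p = 0.0129). COL16A1 reached the limit through the siCTRL libraries alone. Its call was lost without siCTRL replicate 3 (adjusted p = 0.0702), siMic60 replicate 2 (0.0560) or siMic60 replicate 3 (0.0607). COL9A3 of cartilage had 21, 12 and 8 counts in siCTRL and 2, 5 and 11 in siMic60, with overlap (log2 fold change −1.13, 95% interval −2.33 to 0.078, adjusted p = 0.131). Its exons overlap those of TCFL5 on the opposite strand, which had 610 counts over siCTRL and 543 over siMic60, and since the strand setting of the counting is not given in the sources used here, reads of the pair may have been split.

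Of 2 transmembrane collagens tested, COL17A1 was called, where 35.5% of all genes tested were. COL17A1 reached the limit through the siCTRL libraries alone, so a lower value in siMic60 was built into its entry. COL13A1, found at cell adhesions and the neuromuscular junction, was at 235, 240.5 and 281 CPM in siCTRL and at 185, 174 and 241 CPM in siMic60. The groups overlapped through siMic60 replicate 3, and the difference did not pass (log2 fold change −0.33, 95% interval −0.62 to −0.043, adjusted p = 0.0699). Without siMic60 replicate 3 it was −0.49 (adjusted p = 0.0152). With any other library left out the difference did not pass (adjusted p = 0.0536 to 0.249). COL17A1, the hemidesmosome collagen that anchors epithelial cells to the basement membrane, had 21, 34 and 25 counts in siCTRL and 6, 5 and 7 in siMic60. The groups were well apart, and it fell 4.18-fold (95% interval 2.21 to 7.89, adjusted p = 0.00161).

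COL18A1, a basement membrane collagen with heparan sulfate chains that yields endostatin, was at 55.6, 41.8 and 43.6 CPM in siCTRL and at 21.8, 17.4 and 19.4 CPM in siMic60. It fell 2.42-fold with no overlap (95% interval 1.92 to 3.03, adjusted p = 1.79e-05). Its exons overlap those of SLC19A1 on the opposite strand, which had 801 counts over siCTRL and 1076 over siMic60, so the 1152 and 452 counts of COL18A1 may include or lack reads of that gene. The 120 bases before a RefSeq start of COL18A1 are shown because they are the most GC-rich of those printed, at 91.7% (chr21:45405045-45405164, plus strand, GRCh38.p14). Capitals mark 5 matches to GGGCGG, all on the opposite strand, of which a pair overlaps by 1 base.
COL18A1: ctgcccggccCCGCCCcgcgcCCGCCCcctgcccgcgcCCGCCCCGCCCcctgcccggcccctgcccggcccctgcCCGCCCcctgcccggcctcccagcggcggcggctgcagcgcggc

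The collagen COL28A1, expressed mainly in the nervous system, had 13, 15 and 12 counts in siCTRL and 4, 0 and 0 in siMic60. The normalized counts were 9.56 times higher in siCTRL (95% counting interval 3.46 to 36.8). The edgeR fit gave an 8.69-fold lower level in siMic60 (95% interval 2.54 to 29.8, adjusted p = 0.00711). All siMic60 counts came from replicate 1, and the gene reached the limit through the siCTRL libraries alone. The fitted log2 fold change of −3.12 became −6.77 without siMic60 replicate 1, and −2.53 or −2.50 without siMic60 replicate 2 or 3. Without replicate 1 no count is left in siMic60, and the data do not set the size of that value. COL7A1, the anchoring fibril collagen of skin, had 31, 18 and 17 counts in siCTRL and 23, 14 and 37 in siMic60. Its groups overlapped (log2 fold change 0.23, 95% interval −0.62 to 1.09, adjusted p = 0.688).

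**Figure D4:**
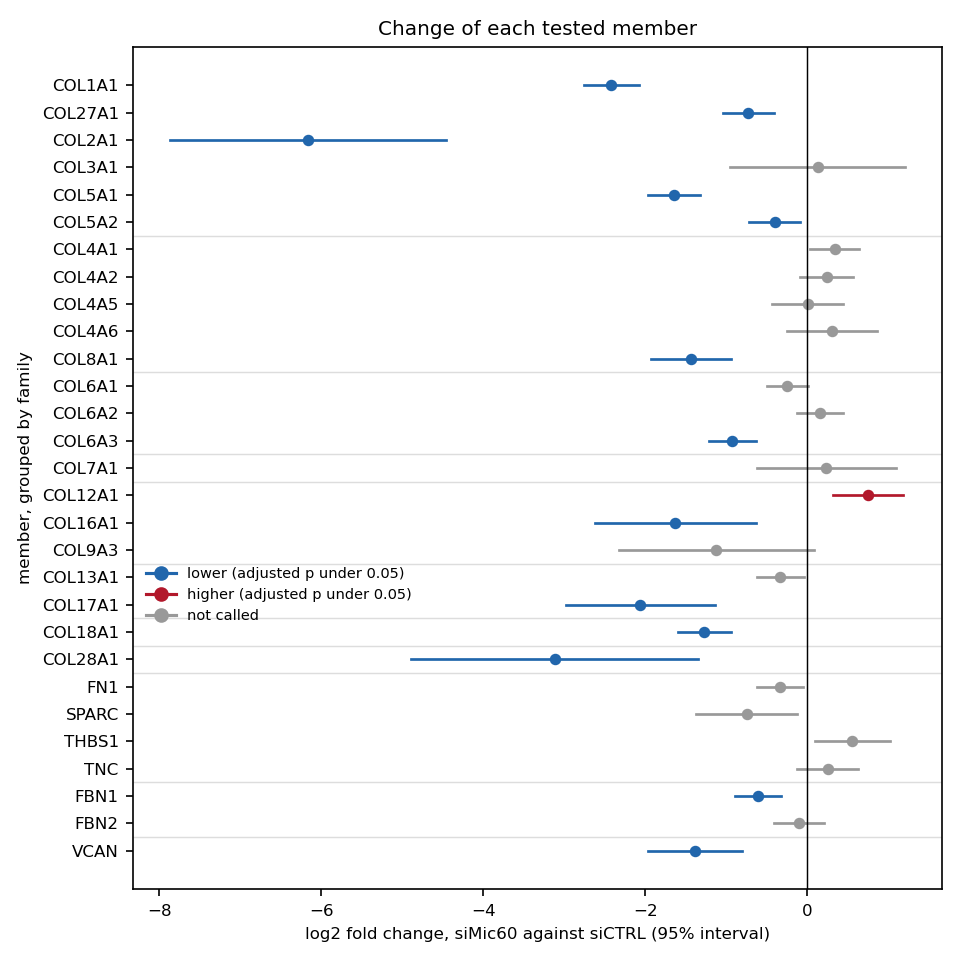
Log2 fold change of siMic60 against siCTRL for the 29 tested genes with 95% intervals, grouped by family, with genes that fell in blue, the gene that rose in red and genes that did not pass in grey. Most fibrillar collagens lie left of 0, the type IV collagens lie near 0 or slightly right of it, and COL12A1 is the single red point.

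Among the other matrix genes, VCAN and the fibrillin FBN1 fell. VCAN, the large hyaluronan-binding proteoglycan versican, was at 9.83, 11.4 and 10.7 CPM in siCTRL and at 5.98, 2.94 and 3.46 CPM in siMic60. It fell 2.62-fold with no overlap (95% interval 1.75 to 3.91, adjusted p = 0.00105). FBN1, the main microfibril protein of elastic tissue, was at 75.2, 62.9 and 57.4 CPM in siCTRL and at 46.3, 39.5 and 42.5 CPM in siMic60. It fell 1.52-fold, also with no overlap (95% interval 1.25 to 1.86, adjusted p = 0.00260). FBN2, the related fibrillin of developing tissue, was at 46.1, 58.8 and 53.8 CPM in siCTRL and at 44.3, 44.6 and 58.2 CPM in siMic60, with overlapping groups (log2 fold change −0.11, 95% interval −0.41 to 0.20, adjusted p = 0.605).

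The glycoproteins that link collagen to cells did not pass the test in either direction. FN1, which encodes fibronectin, was at 233, 197 and 190 CPM in siCTRL and at 142, 156 and 192 CPM in siMic60, with siMic60 replicate 3 inside the control range (log2 fold change −0.34, 95% interval −0.62 to −0.050, adjusted p = 0.0639). SPARC, a collagen-binding matricellular protein of bone, was at 22.8, 18.0 and 13.6 CPM in siCTRL and at 5.52, 10.04 and 16.3 CPM in siMic60, and siMic60 replicate 3 again overlapped the controls (log2 fold change −0.75, 95% interval −1.37 to −0.13, adjusted p = 0.0586). Without siMic60 replicate 3 the adjusted p was 0.0222 for FN1 and 0.00836 for SPARC, and SPARC also passed without siCTRL replicate 3 (adjusted p = 0.0298). For FN1, leaving out any of the other libraries gave adjusted p of 0.0682 to 0.241. For SPARC, the remaining libraries gave 0.108 to 0.205. THBS1, which encodes thrombospondin 1, an activator of latent TGF-beta, was at 73.4, 135 and 145 CPM in siCTRL and at 223, 152 and 143 CPM in siMic60. Here replicate 3 of each group lay close together (log2 fold change 0.55, 95% interval 0.090 to 1.02, adjusted p = 0.0600). Without siCTRL replicate 3 the adjusted p was 0.0251, and without any other library it was 0.0568 to 0.281. TNC, the tenascin of remodelling tissue, was at 12.7, 12.0 and 14.4 CPM in siCTRL and at 13.8, 15.1 and 17.6 CPM in siMic60, with overlap (log2 fold change 0.25, 95% interval −0.12 to 0.63, adjusted p = 0.289).

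The genes that hydroxylate, fold and export collagen chains included more that rose than fell. Of 19 collagen biosynthesis genes, all tested, 10 rose, 1 fell (COLGALT2, a collagen galactosyltransferase) and 8 did not pass, with a median log2 fold change of 0.36 beside 0.0022 over all genes, of which 17.7% rose and 17.9% fell. SERPINH1, the collagen chaperone HSP47, was at 30.8, 26.3 and 33.2 CPM in siCTRL and at 79.3, 65.5 and 67.5 CPM in siMic60. It rose 2.35-fold with no overlap (adjusted p = 7.49e-06). PLOD2, a lysyl hydroxylase that prepares telopeptides for crosslinks, rose 2.80-fold from 47.9 ± 17.1 to 134 ± 13.5 CPM (SD, n = 3, edgeR adjusted p = 5.99e-05). CRTAP, part of the prolyl 3-hydroxylase complex, rose 1.69-fold (adjusted p = 1.15e-04) and PLOD3, a lysyl hydroxylase, 1.71-fold (adjusted p = 2.09e-04), and none of these 4 genes overlapped between the groups.

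Of 14 collagen processing and crosslinking genes 12 were tested, 2 rose, 3 fell and 7 did not pass, with a median log2 fold change of −0.035. These shares are near those over all genes (17.7% and 17.9%). TGM2, a transglutaminase that crosslinks matrix proteins, was at 65.9, 97.8 and 104 CPM in siCTRL and at 515, 466 and 427 CPM in siMic60, a 5.26-fold rise (adjusted p = 3.25e-08). LOXL4, a lysyl oxidase, was at 65.3, 57.2 and 62.9 CPM in siCTRL and at 7.82, 13.7 and 14.1 CPM in siMic60, a 5.14-fold decrease (adjusted p = 1.83e-07). Neither gene overlapped between the groups. PCOLCE2, an enhancer of C-propeptide removal, rose 2.59-fold (adjusted p = 1.24e-04), and ADAMTS3, a procollagen N-proteinase, fell 2.96-fold (adjusted p = 3.78e-04).

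**Figure D5:**
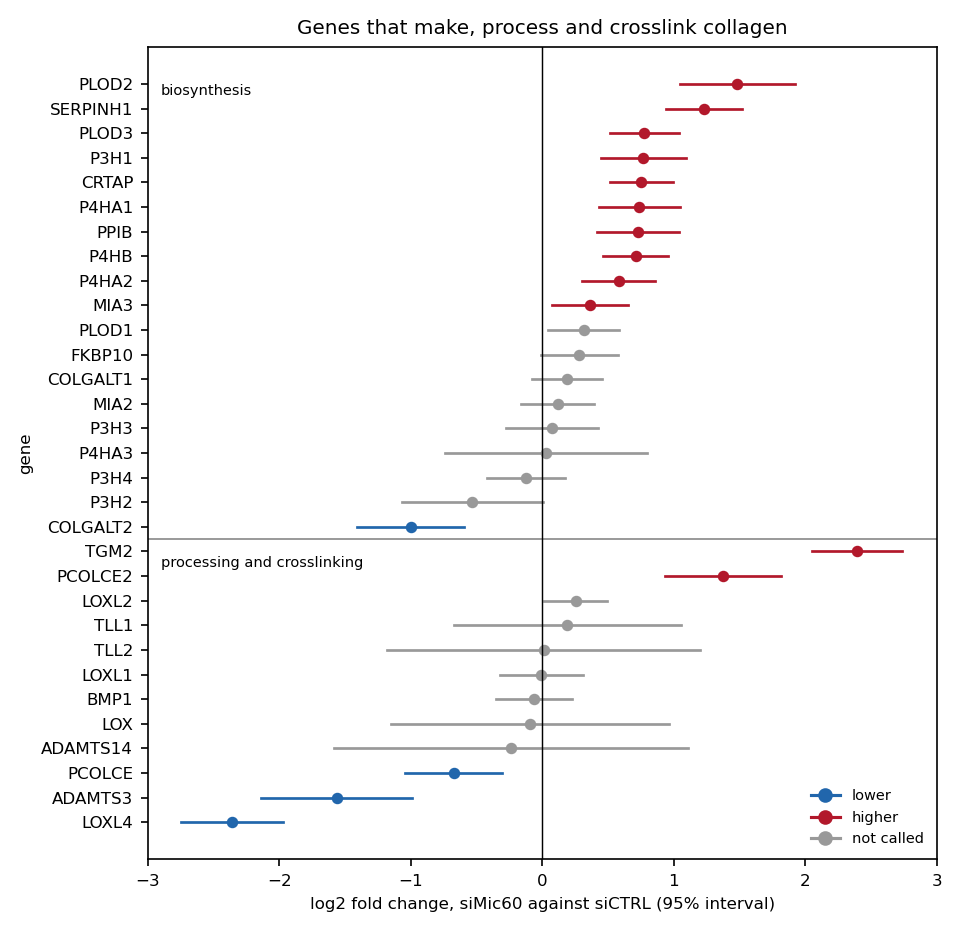
Log2 fold change of siMic60 against siCTRL with 95% intervals for the 19 collagen biosynthesis genes (upper block) and the 12 tested processing and crosslinking genes (lower block), with genes that rose in red, genes that fell in blue and genes that did not pass in grey. Red points fill the top of the upper block, and the lower block spans TGM2 at 2.39 to LOXL4 at −2.36.

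For receptors and partners of these matrix proteins, counts are read against the 17.7% of all genes that rose and the 17.9% that fell. Of 16 matrix receptor genes 14 were tested, 4 rose and 3 fell. ITGB1, the common beta subunit of the collagen- and fibronectin-binding integrins, rose 2.19-fold (453 ± 19.2 to 992 ± 70.6 CPM, SD, n = 3, edgeR adjusted p = 1.42e-06), ITGA5 rose 1.84-fold and CD44 1.498-fold, and MRC2, the collagen uptake receptor Endo180, fell 1.68-fold. The other alpha subunits listed did not rise: ITGA10 (2.11-fold) and ITGAV (1.71-fold) fell, ITGA1 and ITGA2 did not pass, and ITGA11 was not tested. Of 15 basement membrane partners of type IV collagen 14 were tested, 5 rose and 3 fell. The laminin chain genes LAMC1 (1.74-fold) and LAMB2 (1.64-fold), the linker NID1 (1.74-fold) and AGRN, which encodes agrin (1.79-fold), rose, and AGRN was no longer called without siMic60 replicate 3 (adjusted p = 0.0713). Of 37 matricellular and elastic fibre relatives 16 were tested, 3 rose and 3 fell, close to the shares over all genes. CCN2 (1.85-fold) and the fibulin EFEMP1 (2.65-fold) rose, and CCN3 (2.92-fold) and LTBP1 (1.72-fold), which binds latent TGF-beta to fibrillin microfibrils, fell. The medians of these 3 lists were −0.031, 0.19 and −0.23 on the log2 scale.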

How the data were processed

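PC3 RNA was sequenced from 3 siCTRL and 3 siMic60 QuantSeq 3′ mRNA libraries. The authors deposited 1 table of counts, with 1 column per library and no normalization. All values are whole numbers, and among the tools in the submitters' processing notes are RSEM 1.2.3, whose estimated counts need not be whole, and DESeq2, with hg19 (GRCh37) as build. For the aligner, annotation and strand, nothing is given in the sources used here, and antisense and overlapping genes are uncertain. Gene symbols were matched for 52301 of 57736 identifiers, 51959 through current names and 342 through GENCODE 29. Because the build differs, the only coordinates printed are those of RefSeq promoters. Neighbouring genes were read from RefSeq and exon overlaps from GENCODE 29. These overlaps may differ from those in the annotation used for counting.

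Tests used edgeR 4.0.16 under R 4.3.3 (TMM, 10 counts or more in 3 or more of the 6 libraries, quasi-likelihood test, Benjamini-Hochberg adjustment over 14653 genes, threshold 0.05). On simulated counts of 14395 genes for siMic60 against siCTRL, true changes of 1.5-fold were found in 18 of 74 genes, of 2-fold in 44 of 61 and of 5-fold in 58 of 58, and 7 of the 14202 genes left unchanged were called. The simulation changed few of its genes, whereas 35.5% of genes were called in the data, so its rates need not hold there. Intervals are at 95%, and counting intervals cover counting error only. Chain ratios used a pseudocount of 0.5.

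Members and lists were chosen with earlier results of these data known. All tested members are described, untested ones with at least 10 counts in all are given by counts, and 4 called genes with the smallest adjusted p are named per list. COLGALT2 was named after its value was seen. Alternatives were DESeq2 1.42.0 and its size factors, library totals, no minimum count, a minimum of 50, a mean count of at least 10, a replicate block and leaving out each library. Replicates within a group differed by more than sampling noise (chi-square per degree of freedom 3.54 to 13.5), so none was merged.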

Additional observations from a re-analysis of the deposited data

How the results depend on the processing

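The direction of all 14 called members held under every alternative run in which they could be fitted, and no call was lost other than those of COL5A2 and COL16A1 when single libraries were left out, as given above. The number of collagens that fell was 11, and 8 to 13 under the other settings. With a minimum of 50 counts COL2A1, COL3A1, COL7A1, COL9A3, COL16A1, COL17A1 and COL28A1 were not tested. With library totals 4 other matrix genes fell instead of 2 (FN1 and SPARC added, and among collagens COL6A1 and COL13A1), and the median of all genes moved to −0.055 (log2). With no minimum count 1 other matrix gene rose instead of 0 (THBS1), and SPARC and COL13A1 were added to those that fell. A minimum of 50 added COL13A1 and FN1, and DESeq2 added SPARC (adjusted p = 0.0387), all lower. Requiring 1 count in any library put 49 members instead of 29 in the detected group. COL4A5, at 0.0015, was −0.051 with library totals, −0.017 with a minimum of 50, −0.0004 with a mean count of at least 10 and −0.041 with the replicate block. Leaving out each library gave COL4A5 at −0.34 to 0.17, COL3A1 at −0.51 to 0.39 and COL7A1 at −0.064 to 0.55. It gave 0 to 1 other matrix genes that rose, 2 to 4 that fell, 1 to 2 biosynthesis genes that fell and 1 to 3 basement membrane partners that fell. Same-numbered libraries deviated from their group means with correlations of −0.12, −0.025 and 0.024, and differently numbered ones with −0.13 to 0.13. No shared effect of the replicate number was seen, but this cannot show whether the libraries were prepared as pairs. The replicate block gave 12 collagens that fell instead of 11, adding COL13A1 (adjusted p = 0.0477), and took the genes that rose from 2587 to 2384 and those that fell from 2617 to 2382.

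Depth limits the members of lowest level, where folds rest on a few counts.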
